A study of Rattus norvegicus with 5 samples.

Results

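The cytosolic ribosomal proteins were followed in small intestine from male Wistar rats under mild to moderate caloric restriction (CR). The members were chosen by symbol: every gene probe set (a group of oligonucleotide probes for 1 transcript) whose array annotation gives a single gene name beginning with Rpl or Rps and a digit, or Rplp and a digit, together with *Rpsa* and without the S6 kinases. This gave 50 probe sets for 44 genes, of 10411 genes named by a single symbol, with 30 genes of the large subunit and 14 of the small subunit. Each gene was represented by its brightest probe set, and 41 genes (27 large, 14 small) had a mean signal at or above the median of the array. The stalk proteins *Rplp1* and *Rplp2* and the ubiquitin fusion *Rps27a* were not among the probe sets with a single name.

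The rats were 6 weeks old when the diets began and were given a control diet, or 5, 10, 20 or 30% less, for 1 month. The animals shared the strain, the sex and a 16 h fast before dissection. RNA from 5 rats was pooled at each level and measured on a single Affymetrix Rat 230A array, giving 5 arrays. The levels are unreplicated, and the spread between rats was averaged out in the pools.

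The cytosolic ribosome reads mRNA in 2 unequal parts: the small subunit (40S) decodes the message, and the large subunit (60S) joins the amino acids. Their proteins are needed in matched amounts, and many of their mRNAs in mammals begin with a run of pyrimidines (C and T in the DNA), the TOP tract, through which the nutrient-sensing kinase mTOR controls translation. That control acts on the use of the mRNA more than on its amount, and the arrays measured amount alone. The intestinal epithelium renews itself from dividing crypt cells, which have a high demand for ribosomes.

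The start of the transcripts is shown for 6 members, because the TOP tract is the feature that the family shares outside its proteins. *Rpl13a*, *Rpl21*, *Rps15a* and *Rps27l* had higher signals than the control at every CR level, *Rps15* had lower signals at every level, and *Rpl27a* stands for the commonest pattern, described below. Each line gives the 15 bases before and the 15 bases from the annotated start, 5′ to 3′ on the transcript strand, with the longest run of C and T in capitals. The sequences are from RefSeq, build GRCr8, at chr1:104748899-104748928 (minus strand) for *Rpl13a*, chr12:13386139-13386168 (minus) for *Rpl21*, chr1:181860270-181860299 (minus) for *Rps15a*, chr8:76443643-76443672 (plus) for *Rps27l*, chr7:10068101-10068130 (minus) for *Rps15* and chr1:172974558-172974587 (plus) for *Rpl27a*.
Rpl13a: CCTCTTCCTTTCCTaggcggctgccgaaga
Rpl21: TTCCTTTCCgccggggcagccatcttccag
Rps15a: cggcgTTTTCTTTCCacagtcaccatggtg
Rps27l: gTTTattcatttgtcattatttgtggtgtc
Rps15: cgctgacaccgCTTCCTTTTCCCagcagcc
Rpl27a: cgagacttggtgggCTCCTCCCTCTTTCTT
The run was 14 bases long in *Rpl13a*, 12 in *Rps15*, 16 in *Rpl27a* and only 3 in *Rps27l*. The longest run could lie anywhere in the window. In *Rpl13a*, *Rpl21*, *Rps15a* and *Rps27l* it ended before the annotated start, and in *Rps15* and *Rpl27a* it spanned it. A run of at least 7 consecutive bases, each C or T, searched on the transcript strand alone, was present in 25 of the 37 members with a sequence (67.6%), against 17.8% of 27457 promoters of the same window. In the large subunit 16 of 25 genes had such a run, and in the small subunit 9 of 12 genes. These matches describe letters around annotated starts, which can lie some bases away from the start used in the intestine, and do not show that the mRNA begins with the run.

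The arrays were alike in general: the correlation of log2 signals between any pair of arrays was 0.971 to 0.988. The signals were scaled so that the trimmed mean was 132 on every array, and the median signal lay between 45.0 and 49.1. The 20% CR array had the highest beta-actin 3′ to 5′ signal ratio, at 3.18 against 2.20 to 2.41 on the other 4 arrays. A higher ratio is a sign of less intact RNA. For *Gapdh*, by contrast, this ratio was 1.21 to 1.40 on all arrays. Enterocyte markers showed that the tissue label fits, with 5 of 5 measured genes kept. Their summed signal was 14018 at 20% CR, against 9721 to 10609 on the other CR arrays and 9972 on the control array. Of 13 crypt and proliferation markers 11 were kept, with summed signals of 2807 to 3102 on the CR arrays and 2679 on the control array. Exocrine pancreas genes ran the other way, with a summed signal over 9 genes of 272 to 385 on the CR arrays and 874 on the control array, and only *Cela1* was kept; the part of this difference in the ratios to the control was not tested. In such pooled tissue, fewer cells of a type and less RNA per cell cannot be told apart.

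Across the family, signals at 5 and 30% CR lay near the control, those at 10% CR lay above it, and those at 20% CR lay farther above it as deposited but near it under quantile normalization or cyclic loess. Log2 ratios to the control array are given throughout, so that a positive value means a higher signal under CR. The median over the 41 genes was −0.01 at 5% CR, 0.11 at 10% CR, 0.20 at 20% CR and 0.02 at 30% CR, while the medians over all 7933 kept probe sets were 0.005, 0.006, −0.030 and 0.001. At 10% CR 38 of the 41 genes were above the control, as against 51.1% of all kept probe sets, and 34 to 39 were above it under the 6 scalings tried. At 20% CR 38 genes were again above the control, against 45.5% of all kept probe sets, but only 21 under quantile normalization. Of 612 probe sets of other genes among the brightest 5%, where 38 of the 41 members also lie, 46.4% were above the control at 10% CR and 67.3% at 20% CR. At 5% CR 17 genes were above the control and at 30% CR 21 genes, against 50.8 and 50.1% of all kept probe sets.

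**Figure D1:**
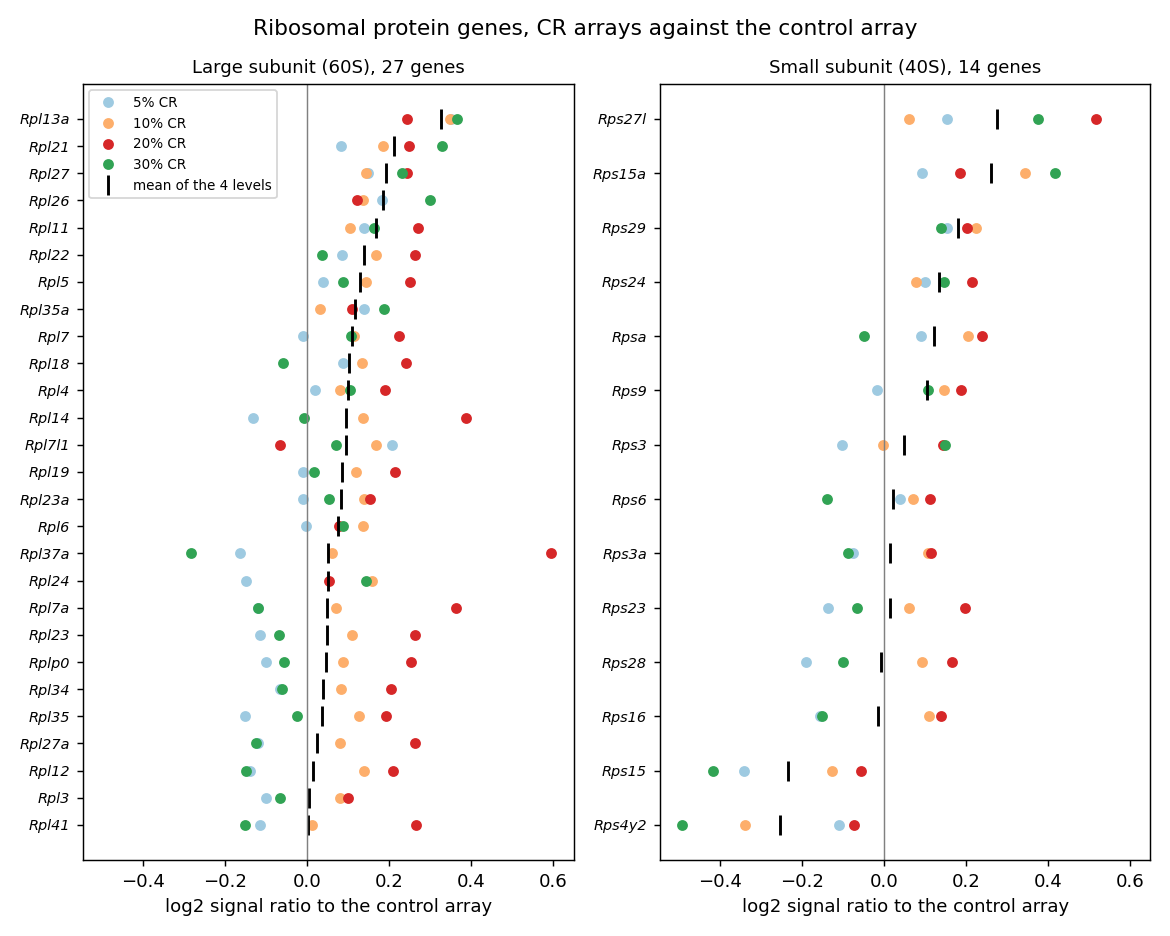
Log2 signal ratio of each CR array to the control array (x axis) for the 41 kept ribosomal protein genes, 1 row per gene, large subunit on the left and small subunit on the right; points are the CR levels and black bars the mean of the 4 levels. The points at 20% CR lie farthest to the right in 31 of the 41 rows in these signals as deposited, while *Rps15* and *Rps4y2* lie left of 0 at every level.

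The large subunit had the higher median at each level, by 0.04 to 0.09 as deposited, an order that also held under quantile normalization and cyclic loess and that centring cannot change. The median over the 27 large subunit genes was −0.01, 0.13, 0.24 and 0.04 at 5, 10, 20 and 30% CR, and over the 14 small subunit genes it was −0.05, 0.09, 0.18 and −0.06. The difference between these medians, large minus small, was 0.04, 0.04, 0.07 and 0.09, and 0.05 for the mean over the 4 levels. The mean ratio of single genes had an SD of 0.07 in the large subunit and 0.16 in the small subunit (n = 27 and 14 genes). The difference in the mean was 0.02 under quantile normalization, and it turned to −0.01 when 34 probe sets with several names, of which at least 1 was ribosomal, were added to the members. With these added, the large subunit had the lower median at 5% CR (−0.008 against 0.008), 10% CR (0.124 against 0.141) and 30% CR (0.057 against 0.073). All 27 large subunit genes were above the control at 10% CR as deposited (24 to 27 over the 6 scalings), against 11 of the 14 small subunit genes (10 to 12). Each ratio rests on the same single control array, so no test of the subunits against each other was made.

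**Figure D2:**
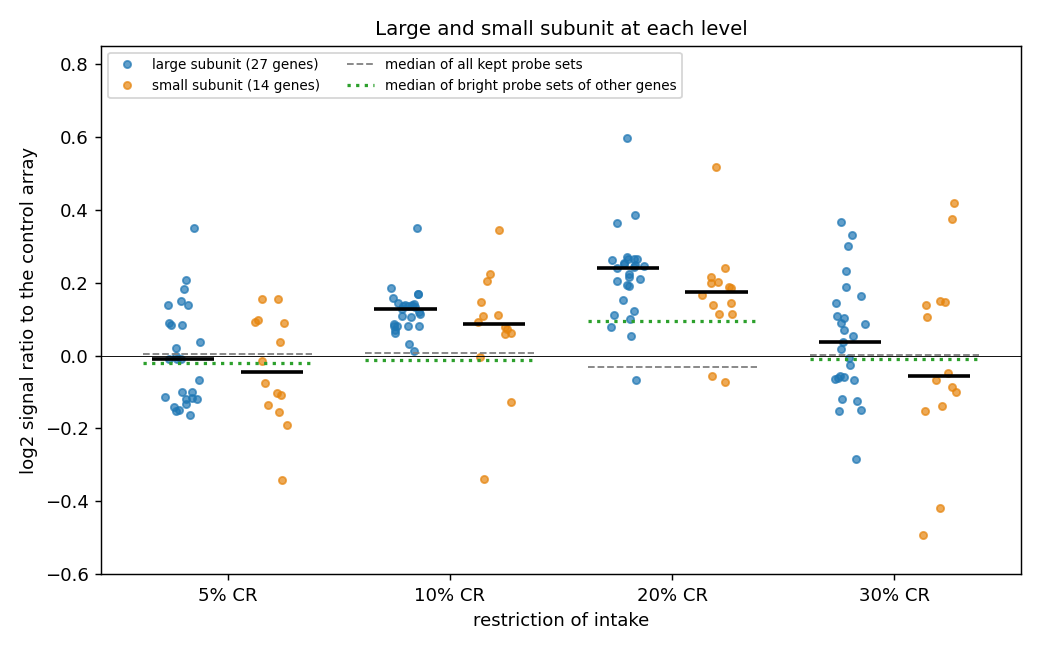
Log2 signal ratio to the control array (y axis) for each kept gene of the large subunit (blue, 27 genes) and the small subunit (orange, 14 genes) at the 4 CR levels, with black bars at the subunit medians and broken lines at the medians of all kept probe sets and of 612 bright probe sets of other genes. The subunits overlap at every level, and at 20% CR, where both medians (0.24 and 0.18) are highest, the bright probe sets also lie above 0 (0.09), all in the signals as deposited.

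The values of the 20% CR array moved most with the scaling. As deposited, 29 of the 41 genes (70.7%) had their highest signal on that array, against 46.1% of 612 probe sets of other genes among the brightest 5% and 21.2% of all kept probe sets. The bright probe sets of other genes had medians of −0.02, −0.01, 0.09 and −0.01 at 5, 10, 20 and 30% CR. Under quantile normalization, which gives all arrays the same distribution, the median at 20% CR was 0.01 in the large subunit and −0.002 in the small subunit, and 5 genes had their highest signal there. Under cyclic loess, which follows intensity, the medians were 0.04 and −0.03, and 6 genes were highest there. With the arrays centred on the bright probe sets of other genes, the medians were 0.12 and 0.06, and 9 genes were highest there, while the median of all kept probe sets moved to −0.15. At 10% CR the large subunit median was positive under all 6 scalings, at 0.06 to 0.14, as was the small subunit median, at 0.02 to 0.09, with the lowest value of each under quantile normalization. At 5% CR the family median of −0.01 turned to 0.03 under quantile normalization and 0.04 under cyclic loess, with 25 genes above the control under quantile normalization in place of 17. The high enterocyte markers and the high beta-actin ratio of the 20% CR array moved with the family there. At 10% CR the 3 kept Paneth cell markers had a median ratio of 0.93, with a summed signal over 5 genes of 5065 at 10% CR, 3159 to 3583 at the other CR levels and 2930 in the control pool. The 6 smooth muscle markers, all kept, had medians of −0.31, 0.15, −0.16 and −0.29 at 5, 10, 20 and 30% CR, and summed signals of 10336 at 10% CR, 7390 to 8668 at the other CR levels and 9352 in the control pool. The part of these markers and of the beta-actin ratio in the result was not tested.

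**Figure D3:**
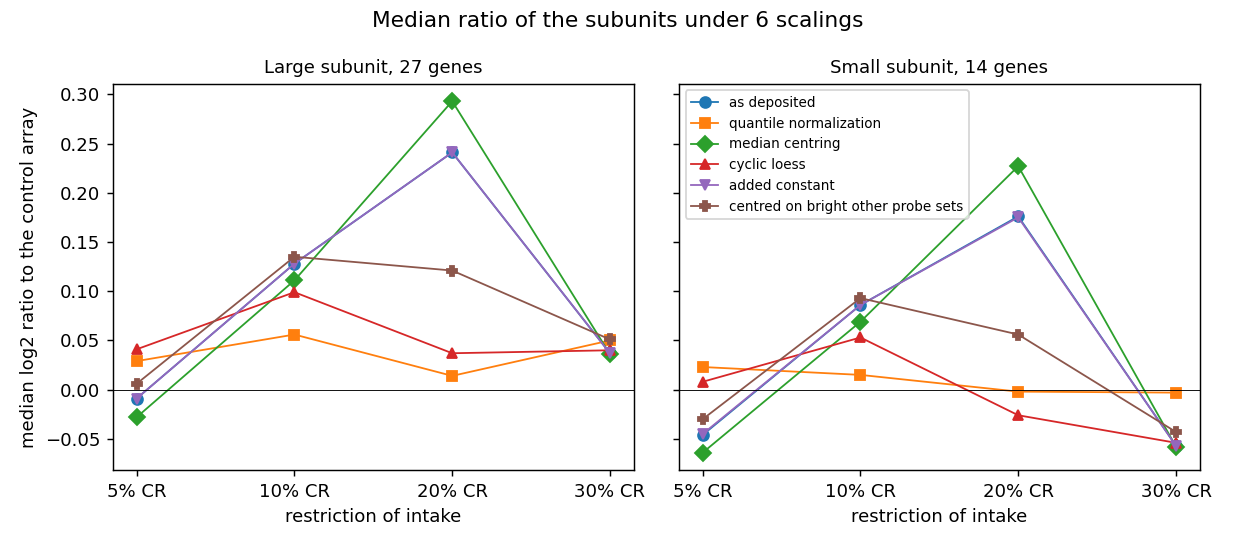
Median log2 ratio to the control array (y axis) of the large subunit (27 genes, left) and the small subunit (14 genes, right) at the 4 CR levels under the signals as deposited and 5 other scalings. The medians at 20% CR (0.24 and 0.18 as deposited) are 0.01 and −0.002 under quantile normalization, whereas the values at 10% CR stay above 0 under each scaling.

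No member passed the test across all probe sets. In the comparison of the 4 CR pools with the control pool, 0 of the 41 genes passed an adjusted p of 0.05 by limma, as did 0.0% of all kept probe sets, and the smallest adjusted p of a member was 0.976. At an unadjusted p below 0.05 there was 1 member, *Rpl13a*, beside 4.76% of all kept probe sets. In the linear trend over restriction, fitted by limma as a slope per 10 percentage points, 0 members passed (0.0% of all kept probe sets), and 1 member, *Rpl21*, had an unadjusted p below 0.05, beside 3.09% of all kept probe sets. Over the alternatives, 0 to 2 members had an unadjusted p below 0.05 in the comparison with the control and 0 to 5 in the trend, with the 5 when the 30% CR pool was left out. The median standard error of a member in the comparison with the control was 0.15, against 0.20 for all kept probe sets. Both fits have 3 residual degrees of freedom, and they take the spread of the control pool, which cannot be measured, to equal that of the CR pools.

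By size, most members differed little from the control. At 5% CR 1 gene was higher by at least 0.25 and 1 was lower by as much, while 19.0 and 16.4% of all kept probe sets were past these limits. At 10% CR the counts were 2 higher and 1 lower, beside 16.7 and 13.9%. At 20% CR 11 genes were higher and 0 lower, beside 14.8 and 21.7%, and the 11 became 2 under quantile normalization or cyclic loess and 22 under median centring. At 30% CR 5 were higher and 3 lower, beside 21.6 and 20.0%. Bright signals vary less, and fewer of the 612 bright probe sets of other genes passed these limits at most levels. Of these 612, 47 were higher and 68 lower at 5% CR, and 33 and 39 at 10% CR. At 20% CR 127 were higher and 23 lower, and at 30% CR 82 and 84. *Rpl37a* (0.60) and *Rps27l* (0.52), both at 20% CR, were the only ratios of at least 0.5 in either direction.

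The order of the 4 levels fell into a few patterns. In 15 of the 41 genes (36.6%) the signal was below the control at 5 and 30% CR and above it at 10 and 20% CR, a pattern that 4.6% of all kept probe sets and 7.03% of the bright probe sets of other genes shared. Of these 15 genes, 11 were large and 4 small subunit genes. Only *Rpl23* and *Rplp0* kept these signs under all 6 scalings, beside 1.53% of all kept probe sets. In 13 genes (9 large, 4 small) the signal was above the control at all 4 levels, beside 19.0% of all kept probe sets, and in 2 it was below at all 4, beside 20.6%. Under all 6 scalings, 8 members stayed above the control at every level (*Rpl5*, *Rpl11*, *Rpl13a*, *Rpl21*, *Rpl22*, *Rpl27*, *Rps15a* and *Rps27l*), beside 12.4% of all kept probe sets. *Rps15* and *Rps4y2* stayed below it, beside 17.0%. Some margins were small: at 20% CR the ratio closest to 0 over the scalings was −0.005 in *Rps15*, −0.017 in *Rps4y2* and 0.007 in *Rpl5*. In *Rps27l* it was 0.006 at 10% CR. *Rpl5* and *Rpl11* form, with the 5S ribosomal RNA, a particle that in human and mouse cells also binds the p53 regulator Mdm2.

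In the large subunit the highest mean ratio was that of *Rpl13a*, a surface protein of the subunit that in human monocytes also silences inflammatory mRNAs. Its signal was 1904 in the control pool and 2428, 2425, 2257 and 2455 at 5, 10, 20 and 30% CR. The 4 CR pools lay within a narrow band well above the control, with a mean ratio of 0.33 ± 0.13 (SE, limma, adjusted p = 0.976). Over the 6 scalings its ratios ran from 0.10 to 0.39.

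*Rpl21*, which in humans is mutated in a hereditary hair loss, had the smallest p of the family in the trend. Its signal was 1453 in the control pool and 1540, 1653, 1726 and 1828 at 5, 10, 20 and 30% CR. Each level was above the one before it as deposited and under 3 of the 6 scalings in all, whereas under quantile normalization, cyclic loess and centring on bright probe sets the 20% CR value was below that at 10% CR. As deposited it had a slope of 0.11 ± 0.05 per 10 percentage points (SE, limma, adjusted p = 0.998). *Rpl27*, which is mutated in some families with Diamond-Blackfan anaemia, a human anaemia of ribosomal protein genes, had signals of 3113 in the control pool and 3451, 3440, 3686 and 3656 at the 4 levels. *Rpl26*, a protein near the exit of the peptide tunnel, had 4203 in the control pool and 4767, 4617, 4574 and 5178. Both were above the control at each level, with mean ratios of 0.19 and 0.18, although *Rpl26* was below it at 20% CR under cyclic loess or quantile normalization, down to −0.09.

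The lowest means of the large subunit were close to 0. *Rpl41*, the smallest ribosomal protein, had signals of 4926 in the control pool and 4552, 4966, 5925 and 4436 at the 4 levels. *Rpl3*, a protein beside the peptidyl transferase centre, had 6034 in the control pool and 5633, 6378, 6469 and 5769. *Rpl12*, at the base of the stalk, had 4626 in the control pool and 4197, 5092, 5345 and 4171. *Rpl27a*, whose start was shown above, had 6139 in the control pool and 5653, 6491, 7371 and 5634. These 4 genes share the same course, low at 5 and 30% CR and high at 20% CR, and their mean ratios were 0.003 to 0.03. Their signs at 20% CR held in *Rpl41* and *Rpl27a* under all 6 scalings and turned below 0 under at least 1 of them in *Rpl3* and *Rpl12*.

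A few others, with mean ratios of 0.05 to 0.17, were chosen after their values were seen. Of these, *Rpl11*, *Rpl22* and *Rpl5* (0.17, 0.14 and 0.13) lay above the large subunit median of 0.09. *Rpl11* had signals of 3093 in the control pool and 3405, 3326, 3730 and 3462 at 5, 10, 20 and 30% CR, and its partner *Rpl5* had 4572 in the control pool and 4694, 5049, 5441 and 4859. *Rpl22*, which mice can do without except in developing lymphocytes, had 4403 in the control pool and 4669, 4945, 5284 and 4517. All 3 had their lowest signal with the control diet and, as deposited, their highest at 20% CR. Over the 6 scalings the ratio at 20% CR fell as low as 0.10 in *Rpl11*, 0.007 in *Rpl5* and 0.05 in *Rpl22*. *Rpl19*, which reaches across to the small subunit, had 4604 in the control pool and 4572, 5005, 5344 and 4658, so that its 5 and 30% CR values differed from the control by less than 0.02 on the log2 scale. *Rpl14*, a surface protein, had 2641 in the control pool and 2408, 2902, 3454 and 2629, and *Rpl7a* had 6895 in the control pool and 6343, 7237, 8876 and 6347. In both the 20% CR value stood apart from the other 4 as deposited. Over the 6 scalings its ratio to the control was 0.23 to 0.44 in *Rpl14* and 0.05 to 0.42 in *Rpl7a*.

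*Rplp0*, which anchors the stalk that recruits the translation factors, followed that course, with 4512 in the control pool and 4206, 4796, 5377 and 4339 at the 4 levels. The widest swing belonged to *Rpl37a*, a small zinc-binding protein named here after its values were seen. The gene identifier annotated for its probe set had no match in the current rat gene table. Its signal was 4164 in the control pool and 3717, 4346, 6292 and 3419 at the 4 levels. Its SD over the levels was 0.39, against 0.05 in *Rpl27* and 0.06 in *Rpl13a*, and its ratio at 20% CR was 0.37 to 0.65 over the 6 scalings.

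**Figure D4:**
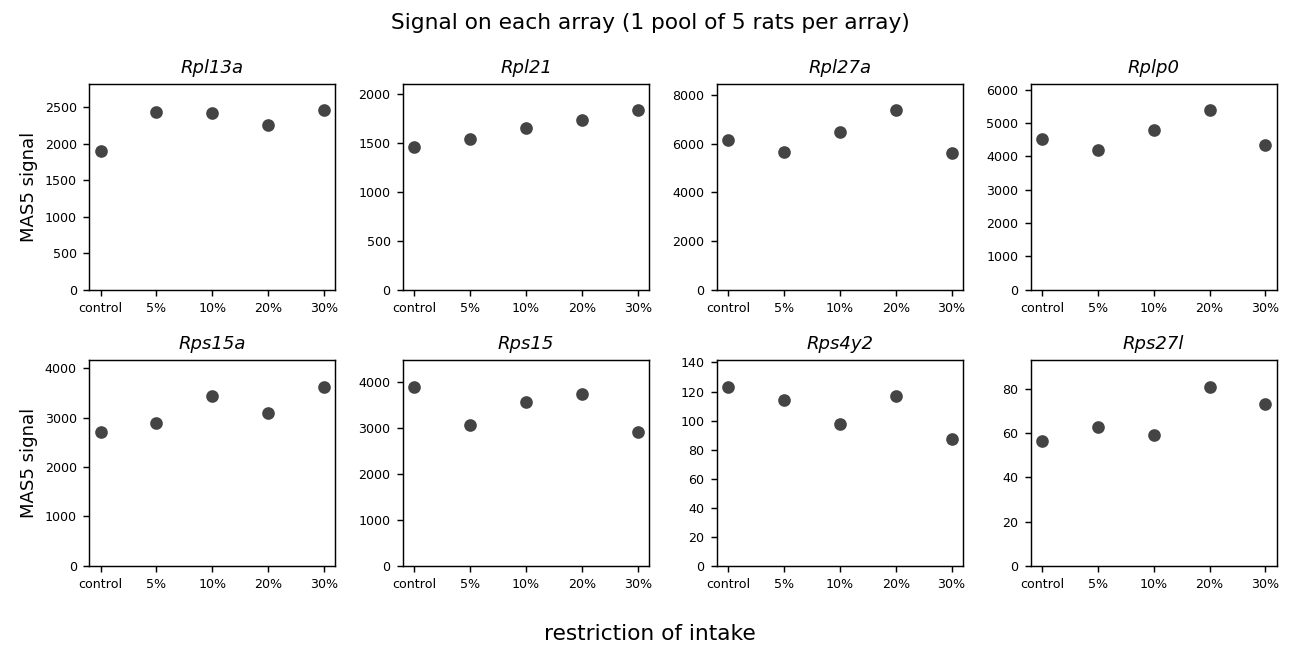
MAS5 signal (y axis, linear, from 0) of 8 ribosomal protein genes on the control array and the 4 CR arrays (x axis), 1 point per array and pool. *Rpl13a* is higher on all CR arrays (2257 to 2455 against 1904), *Rpl21* is higher at each level than at the one before as deposited (under 3 of 6 scalings), *Rpl27a* and *Rplp0* are highest at 20% CR as deposited, and *Rps15* and *Rps4y2* are highest on the control array.

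Mean ratios ran from 0.003 to 0.33 in the large subunit and from −0.25 to 0.28 in the small subunit. *Rps15a*, a conserved protein of the body of the subunit, had signals of 2712 in the control pool and 2892, 3443, 3083 and 3624 at 5, 10, 20 and 30% CR. All CR pools were above the control, with a mean ratio of 0.26 ± 0.15 and a slope of 0.11 ± 0.05 per 10 percentage points (SE, limma, adjusted p = 0.988 and 0.998). *Rps29*, a zinc-binding protein of the head, had 6527 in the control pool and 7267, 7624, 7507 and 7186, and its SD over the levels was 0.04. *Rps24*, another gene of Diamond-Blackfan anaemia, had 4296 in the control pool and 4602, 4538, 4989 and 4756. Both were above the control at each level as deposited, but at 20% CR *Rps29* had a ratio of −0.04 under cyclic loess and *Rps24* one of −0.004 under quantile normalization.

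*Rps15*, whose tail reaches the decoding site and which human cells need to export the small subunit from the nucleus, had the lowest mean ratio of the family after *Rps4y2*. Its signal was 3904 in the control pool and 3080, 3576, 3754 and 2925 at 5, 10, 20 and 30% CR. The control pool was the highest of the 5, and the mean ratio was −0.23 ± 0.16 (SE, limma, adjusted p = 0.988). *Rps16*, whose tail contacts the transfer RNA, had 5252 in the control pool and 4716, 5671, 5786 and 4727, with a mean ratio of −0.01. *Rps28*, a protein near the exit of the mRNA channel, had 4526 in the control pool and 3967, 4827, 5079 and 4225, with a mean ratio of −0.01. *Rps6*, the target of the S6 kinases, had 5800 in the control pool and 5956, 6097, 6273 and 5272, and so was lowest at 30% CR.

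*Rps3*, *Rps9* and *Rps23* were also chosen after their values were seen. *Rps3*, at the entry of the mRNA channel and also known for a part in DNA repair, differed from most, with 3321 in the control pool and 3095, 3314, 3673 and 3682 at the 4 levels. Its pools at 20 and 30% CR were alike and above the others, although at 20% CR the ratio ran from −0.02 to 0.20 over the scalings. *Rps9*, at the same entry, had 2793 in the control pool and 2761, 3090, 3178 and 3007. *Rps23*, beside the decoding site, had 6139 in the control pool and 5587, 6405, 7043 and 5865, the course of *Rps16* and *Rps28*.

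*Rpsa*, the laminin receptor protein of the small subunit, had 3 probe sets. The brightest read 4018 in the control pool and 4276, 4633, 4744 and 3886 at the 4 levels. Another, at 527 in the control pool and 652, 523, 584 and 674, had its highest value at 30% CR, where the other two were below the control. In 5 genes with several probe sets the mean ratios of these differed by 0.06 to 0.15, but in 3 of them (*Rpl7*, *Rpl14* and *Rps24*) only 1 probe set was kept. Single levels differed more: the weak probe set of *Rpl14* had ratios of 1.29 at 10% CR and −0.98 at 20% CR, against 0.14 and 0.39 in the one kept. Ribosomal protein genes have many processed pseudogenes in mammals, and such probe sets may read more than 1 transcript.

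Paralog forms are genes related to the gene of a ribosomal protein, and some of them can stand in for it. *Rps27l*, a p53-inducible form of S27 in human cells, had 56.6 in the control pool and 63.0, 59.0, 81.0 and 73.4 at the 4 levels, with a mean ratio of 0.28 ± 0.25 (SE, limma, adjusted p = 0.988). *Rps4y2*, annotated as a form of S4 and placed on chromosome 4 in the current gene table, had 123 in the control pool and 114, 97.5, 117 and 87.6, with a mean ratio of −0.25 ± 0.22 (SE, limma, adjusted p = 0.988). *Rpl7l1*, a nucleolar relative of L7, had 341 in the control pool and 393, 383, 326 and 358, so that as deposited it was lowest where most of the family was highest. Without the paralog forms the medians at 20% CR were 0.24 in the large and 0.17 in the small subunit, and 12 genes were above the control at all levels.

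Of the 3 genes that were not kept, *Rpl3l*, a form of L3 known from skeletal muscle and heart, had 13.8 in the control pool and 1.2, 3.8, 2.9 and 13.0 at the 4 levels. *Rpl30* read 12.5 to 18.2 on all arrays. *Rpl39*, a protein of the peptide tunnel, read 52.5 in the control pool and 92.5, 27.2, 46.5 and 20.8. Such weak signals after mismatch subtraction vary widely, and ratios of these genes entered only the counts made without a filter.

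Each gene was also set against the median of the family on the same array, a distance that centring cannot change and that only quantile normalization, cyclic loess and, slightly, the added constant can move. *Rpl7*, *Rpl13a*, *Rpl21*, *Rpl22* and *Rpl27* were above that median at all 4 levels as deposited and under these 3. *Rps15*, *Rps28* and *Rps4y2* were below it in the same way. Some of these distances were small: as deposited, that of *Rpl7* was 0.001 at 5% CR and 0.005 at 10% CR, and that of *Rps28* was −0.018 at 10% CR. Members lie on both sides of their own median by construction, and no share over all kept probe sets was counted beside these. As deposited, *Rps15* lay below it by −0.33, −0.24, −0.26 and −0.43 at 5, 10, 20 and 30% CR, and *Rpl13a* above it by 0.36, 0.24, 0.04 and 0.35. All 5 on the upper side are large subunit genes, as are 27 of the 41 members, and the 3 on the lower side are small subunit genes; *Rpl3*, of the large subunit, was also below at all 4 levels except under quantile normalization.

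Genes with and without a pyrimidine run in the window around the annotated start differed most in their medians at 5% CR. This was followed in the signals as deposited alone. The 24 kept genes with a run of at least 7 bases in that window had median ratios of −0.09, 0.10, 0.21 and −0.04 at 5, 10, 20 and 30% CR. The 11 kept genes with a shorter run, which include the weaker paralog forms *Rps27l* and *Rpl7l1*, had 0.04, 0.11, 0.12 and 0.07. *Rps15a* and *Rps15*, at opposite ends of the small subunit, carry runs of 10 and 12 bases. *Rps27l*, with no such run, had a mean ratio of 0.28, beside 0.26 in *Rps15a*.

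Other mRNAs that begin with a TOP tract were followed as a list of translation factors and related genes. This list and those below were followed in the signals as deposited alone. Of 14 such genes kept, 11 had a mean ratio above the control and 3 below, where 49.1% of all kept probe sets had one above. At all 4 levels 6 were above the control and 0 below, beside 19.0 and 20.6% of all kept probe sets. Their medians were 0.04, 0.14, 0.04 and 0.14 at 5, 10, 20 and 30% CR. *Eef1a1*, the factor that brings transfer RNA to the ribosome, had the course of the family, with 5308 in the control pool and 5041, 6448, 6333 and 5636 at the 4 levels. *Naca*, which binds new peptides at the tunnel exit, had 2248 in the control pool and 2605, 2438, 3004 and 2657. *Rack1*, a scaffold on the small subunit that has no Rps symbol, had ratios of 0.01, 0.17, 0.20 and 0.10.

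The machinery that builds ribosomes had medians near 0 or below it. In the list of 50 nucleolar assembly factors, 40 were on the array and 37 were kept. Of these, 16 had a mean ratio above the control and 21 below, where 49.1% of all kept probe sets had one above. The medians were 0.02, 0.03, −0.05 and −0.003. *Ncl*, nucleolin, had 409 in the control pool and 537, 471, 448 and 551 at the 4 levels. *Dkc1*, which modifies ribosomal RNA, had 237 in the control pool and 148, 251, 230 and 134. Of 6 kept genes of RNA polymerase I transcription, 1 had a mean ratio above the control and 5 below, where 49.1% of all kept probe sets had one above. Their medians were −0.09, −0.02, −0.21 and −0.14. At 20% CR as deposited, the bright probe sets of other genes had a median of 0.09 and all kept probe sets one of −0.03. The part of signal strength in the medians of these lists was not tested.

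Of 18 kept genes of the mTOR and S6 kinase axis, 6 had a mean ratio above the control and 12 below, where 49.1% of all kept probe sets had one above. Their medians were 0.01, −0.02, −0.22 and −0.09. At every level 5 were below the control and 0 above, beside 20.6 and 19.0% of all kept probe sets. The list holds activators and inhibitors of the axis side by side, so these counts and medians give no direction for it. Of the 6 genes above the control, *Mlst8*, *Rheb* and *Rptor* had mean ratios of 0.17, 0.14 and 0.11. *Myc*, a transcription factor that drives ribosome synthesis, had 108 in the control pool and 54.3, 86.1, 75.1 and 62.4 at the 4 levels, with a mean ratio of −0.66 ± 0.27 (SE, limma, adjusted p = 0.988). *Larp1*, a protein that binds TOP tracts, had 594 in the control pool and 567, 547, 549 and 477. *Rps6kb1*, the S6 kinase itself, had 75.1 in the control pool and 53.1, 68.6, 73.2 and 57.0. The 71 mitochondrial ribosomal proteins, members of the other ribosome of the cell, had medians of −0.04, −0.01, −0.05 and −0.02. Of their mean ratios, 26 were above the control and 45 below, beside 49.1% of all kept probe sets above. In these lists 0 genes passed an adjusted p of 0.05 by limma in either fit, and at an unadjusted p below 0.05 in the comparison with the control there were 2 of the 71 mitochondrial ribosomal proteins above and 1 of the 18 genes of the mTOR axis below, beside 4.76% of all kept probe sets in either direction.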

How the data were processed

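The authors made the deposited values, MAS5 signals (intensity, linear scale), from 1 array per pool and scaled them to the same trimmed mean, to a target not given in the sources used here. MAS5 subtracts mismatch probes, which makes ratios of weak signals unstable, and scaling removes differences in total RNA. Genes were named from the platform annotation (12783 of 15866 probe sets with 1 symbol, 312 with several, 2771 with none). Of the 44 members, 42 matched the current rat gene table, all but *Rpl37a* and *Rps9*.

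Signals were floored at 0.1 and taken to log2. Probe sets with a mean log2 signal at or above the median (5.54, a signal of 46.5) were kept, 7933 of 15866, without 57 array controls. Two-sided tests of CR (4 pools) against control (1 pool), and of a slope over restriction percent, were run with limma 3.58.1 in R 4.3.3 (lmFit and eBayes, trend = TRUE). P-values were adjusted over the 7933 probe sets by Benjamini-Hochberg, and the fits were tested on simulated data. P-values measure only the spread between pools. Subunit medians, counts by size (log2 ratio of 0.25) and gene lists were described without a test.

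Named genes are the 4 highest and 4 lowest mean ratios in each subunit, the 3 smallest trend p in each direction, the stalk proteins, *Rpsa* and the paralog forms; other members so marked, and genes named from the other lists, were chosen after their values were seen. Alternatives were quantile normalization, median centring, cyclic loess, an added constant of 13, no or a stricter filter (quantile 0.75), a size of 0.5, all probe sets of a gene or their mean, no paralog forms, the rank of the level, no intensity trend and each pool left out. The members and lists were chosen with earlier results of these data known.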

Additional observations from a re-analysis of the deposited data

How the results depend on the processing

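No paired analysis was possible because each animal received a single diet and each pool stands alone. With a single array per level, a ratio carries the error of both arrays, and weak signals carry more. The count of members passing limma's adjusted p of 0.05 was 0 under each alternative run for the fits (quantile, median and loess scaling, added constant, both filters, no intensity trend, the rank of the level for the trend, and each CR pool left out, the control pool for the trend alone). The smallest adjusted p was 0.409 for the comparison, without the 20% CR pool, and 0.474 for the trend, without the 30% CR pool.

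Under quantile normalization the large minus small difference was 0.016, the 20% CR medians were 0.014 (large) and −0.002 (small), and 2 genes were higher by 0.25 at 5% CR and 2 at 20% CR. Under cyclic loess the 20% CR medians were 0.037 and −0.026, with 2 genes higher there; under median centring 22 genes were. Chosen after seeing the data, centring on bright probe sets of other genes gave 0.121 and 0.056, with 3 genes higher at 20% CR, and adding the probe sets with several names gave a difference of −0.010 and a small subunit median of 0.073 at 30% CR. The causes were not tested.

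Without the filter 2 genes were higher and 2 lower at 5% CR, 3 lower at 10%, 2 lower at 20% and 5 lower at 30% CR, since 3 weak genes enter. With the stricter filter 0 were lower at 10% CR and 1 was below the control at all levels, since fewer genes remain. Counting every probe set, 2 were higher at 5% CR. With a size of 0.5, 0 genes were higher and 0 lower at 5, 10 and 30% CR, and 2 were higher at 20% CR.

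Leaving out each CR pool in turn, the large minus small difference was 0.035 to 0.052, and 13 to 19 genes were above the control at all remaining levels and 2 below. A shared sign is easier to reach over fewer levels, and no share over all kept probe sets was counted beside these. The mean ratio was above the control in 37 of 41 genes with all pools, beside 49.1% of all kept probe sets, and in 23 without the 20% CR pool.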

Other observations

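The 34 probe sets with several names, at least 1 of them ribosomal, were all kept and lie outside the comparisons above. Their medians were 0.01, 0.14, 0.19 and 0.09 at 5, 10, 20 and 30% CR, and 18, 30, 33 and 24 of the 34 were above the control. At 20% CR 33 of these 34 probe sets and 38 of the 41 member genes were above the control in the signals as deposited. The share was 45.5% over all kept probe sets and 67.3% over the bright probe sets of other genes.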
